A study of Homo sapiens with 4 samples.

Results

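The 50 genes described here encode initiation, elongation and termination factors of cytosolic translation, with a few enzymes and partner proteins that act on them. They were chosen by symbol, with earlier results of these data known. Each of the 50 symbols was found in 1 row of the count table, which has 58219 rows. EIF5 and the other factors that select the start codon were not among them. All 50 passed the filter on low counts, as did 16340 genes in all. The members took between 1.75% and 1.91% of the counts of a library.

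The cells were U87, an established human glioblastoma line, and the comparison asks which transcripts differ when carnosine is in the medium. Carnosine is the dipeptide of beta-alanine and histidine. The carnosine group holds 2 libraries from cells kept 24 h in medium with 50 mM carnosine, and the control group holds 2 libraries from cells kept 24 h in the same fresh medium without it (0 mM). Both groups grew in high-glucose medium with serum and were rested for 24 h after seeding. U87 is a single line, and the labels do not say that replicates came from separate cultures, so the p values measure the spread between these libraries, which may be technical. Total RNA was depleted of ribosomal RNA and sequenced. Gene counts summed to 57728762 and 51632970 in carnosine replicates 1 and 2, and to 71766267 and 59155538 in control replicates 1 and 2. The mesenchymal and glioma genes VIM, CD44, FN1 and TNC had from 64968 to 527581 counts in every library. GFAP had 10 and 14 counts with carnosine and 16 and 4 counts in controls, S100B had 0 in every library, and SOX2 had 2 and 0 with carnosine and 0 and 0 in controls. These 3 astroglial markers were thus absent or nearly so in both groups. CD3E, CDH5, RBFOX3 and MOG, markers of white blood cells, endothelium, neurons and oligodendrocytes, had 0 counts throughout. Other markers of such cells were counted. SNAP25, a neuronal gene, had 694 and 454 counts with carnosine and 1283 and 856 counts in controls, SYT1 had 674 and 530 with carnosine and 680 and 626 in controls, and PECAM1, an endothelial gene, had 365 and 265 with carnosine and 148 and 153 in controls. The epithelial KRT8 had 345 and 290 with carnosine and 553 and 486 in controls, and PTPRC, CD14, VWF, EPCAM, CDH1 and MBP had from 0 to 102 counts. Their part in the results was not tested.

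Translation initiation joins the small ribosomal subunit, a methionyl initiator tRNA and an mRNA. The factor eIF2 carries the tRNA as a complex with GTP, eIF2B recharges eIF2 with GTP and is blocked when stress kinases phosphorylate eIF2, eIF3 is the large scaffold on the small subunit, and the eIF4F group (eIF4E, eIF4G and eIF4A) binds the cap and unwinds the leader. Elongation is driven by eEF1, which brings aminoacyl-tRNA, and eEF2, which moves the ribosome along, and release factors end the chain. Many mRNAs of elongation factors and ribosomal proteins start with a terminal oligopyrimidine (TOP) tract, a C at the cap followed by pyrimidines, through which mTOR signalling controls their translation.

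Start sequences are shown because the TOP tract is the one sequence feature for which this family is known. Entries of RefSeq (GRCh38.p14) were found for 40 of the 50 members. EEF2KMT was among the 10 without an entry, so its start was not searched. A tract was counted where the annotated start base was C and at least the next 4 bases were each C or T on the gene's strand. Of the 40 members, 12 (30.0%) had such a start, against 7.30% of the 10146 tested genes with an entry and 4.07% of all 35116 start entries. Each line below gives 20 bases before the start and 10 from it, with the tract in capitals.
EEF1A1 (chr6:73521023-73521052, minus strand): cagtagtcgccgtgaacgttCTTTTTCgca
EEF2 (chr19:3985454-3985483, minus strand): tgagtgttgacgtcagcgttCTCTTCCgcc
EEF1B2 (chr2:206159875-206159904, plus strand): attttccggtctcttcgggtCCTTTTTCCT
EIF4B (chr12:53006436-53006465, plus strand): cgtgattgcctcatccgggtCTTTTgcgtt
EIF4A2 (chr3:186783557-186783586, plus strand): gggtggttgggcgccgctgtCTTTTCagtc
EIF3D (chr22:36529157-36529186, minus strand): ccgctgcgcgcgcatgtttcCTCTTTTCCT
EIF2A (chr3:150546767-150546796, plus strand): aactctcacccgagcggtttCTCTTTCCgg
EIF2D (chr1:206612456-206612485, minus strand): gccctggtttccagccgggcCCTTTTCgcg
The other members with such a start were EIF2S3, EIF3F, EIF3K and EIF3M. The 12 had log2 fold changes (carnosine over control) from -0.54 to 0.26 with a median of -0.22, and the 28 with an entry and no such start had a median of -0.15. EIF2D was the 1 of the 12 that passed the test, and 5 of the 28 passed, where 8.31% of all genes tested did. The tract-bearing members thus include the called EIF2D, at -0.54, and also EIF4A2, at 0.26, which did not pass. These are descriptions of annotated starts, which may not be the starts used in U87.

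Carnosine lowered 7 of the 50 translation factors, and 0 of them passed as higher. The lowered genes were EEF2KMT, the lysine methyltransferase of eEF2 (2.19-fold lower), EIF3J, a loosely attached eIF3 subunit (1.47-fold), EIF2D, which can deliver tRNA to the ribosome without eIF2 (1.46-fold), EIF5A2, the minor isoform of eIF5A (1.44-fold), EIF2B3 and EIF2B1, subunits of eIF2B (1.44-fold and 1.34-fold), and EIF6, which keeps the large ribosomal subunit apart from the small one (1.38-fold). The abundant factors of elongation, cap binding, poly(A) binding and release did not pass. In this comparison 8.31% of all genes tested were called, 4.36% lower and 3.95% higher (edgeR's quasi-likelihood test, adjusted p under 0.05), and among the 7979 genes with a mean count of at least 1000, as 46 of the members have, 6.53% were called lower and 4.54% higher. Of those 46 members, 6 were called lower and 0 higher, EIF5A2 being the called gene below that mean. Because the members were chosen with earlier results of these data known, comparisons of them with all genes are descriptive.

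The median log2 fold change was -0.20 over the 50 members and 0.0009 over all genes tested, and 41 members lay below 0. Without carnosine replicate 1 the members' median was -0.11 and 36 lay below 0. Of all genes tested 49.9% lay below 0. Among the 7979 genes with a mean count of at least 1000, 4341 lay below 0 and the median was -0.03. Among the 46 members of that depth 37 lay below 0, and their median was -0.19. Both carnosine libraries lay below both controls for 28 of the 50 members, a larger share than the 28.8% of all genes tested. They lay above both controls for 3 of the 50 (EIF4A2, EIF4G3 and GSPT1), a smaller share than the 27.8% of all genes tested. At an unadjusted p under 0.05 (edgeR), 15 of the 50 members were lower and 0 higher. Of the 16340 genes tested, 2305 (14.1%) were lower and 2168 higher. Among members with a mean count of at least 1000 the carnosine libraries lay below both controls for 26 of 46, against 2785 of 7979 genes (34.9%) of that depth. Counts are shares of a library, and in bulk samples fewer cells of a type and less RNA per cell cannot be told apart. Of the 7 calls, that of EEF2KMT alone held without each of the 4 libraries in turn. The number of members called was 2 without control replicate 1, 1 without control replicate 2, 4 without carnosine replicate 1 and 11 without carnosine replicate 2. Such fits have fewer libraries to estimate the spread from.

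**Figure D1:**
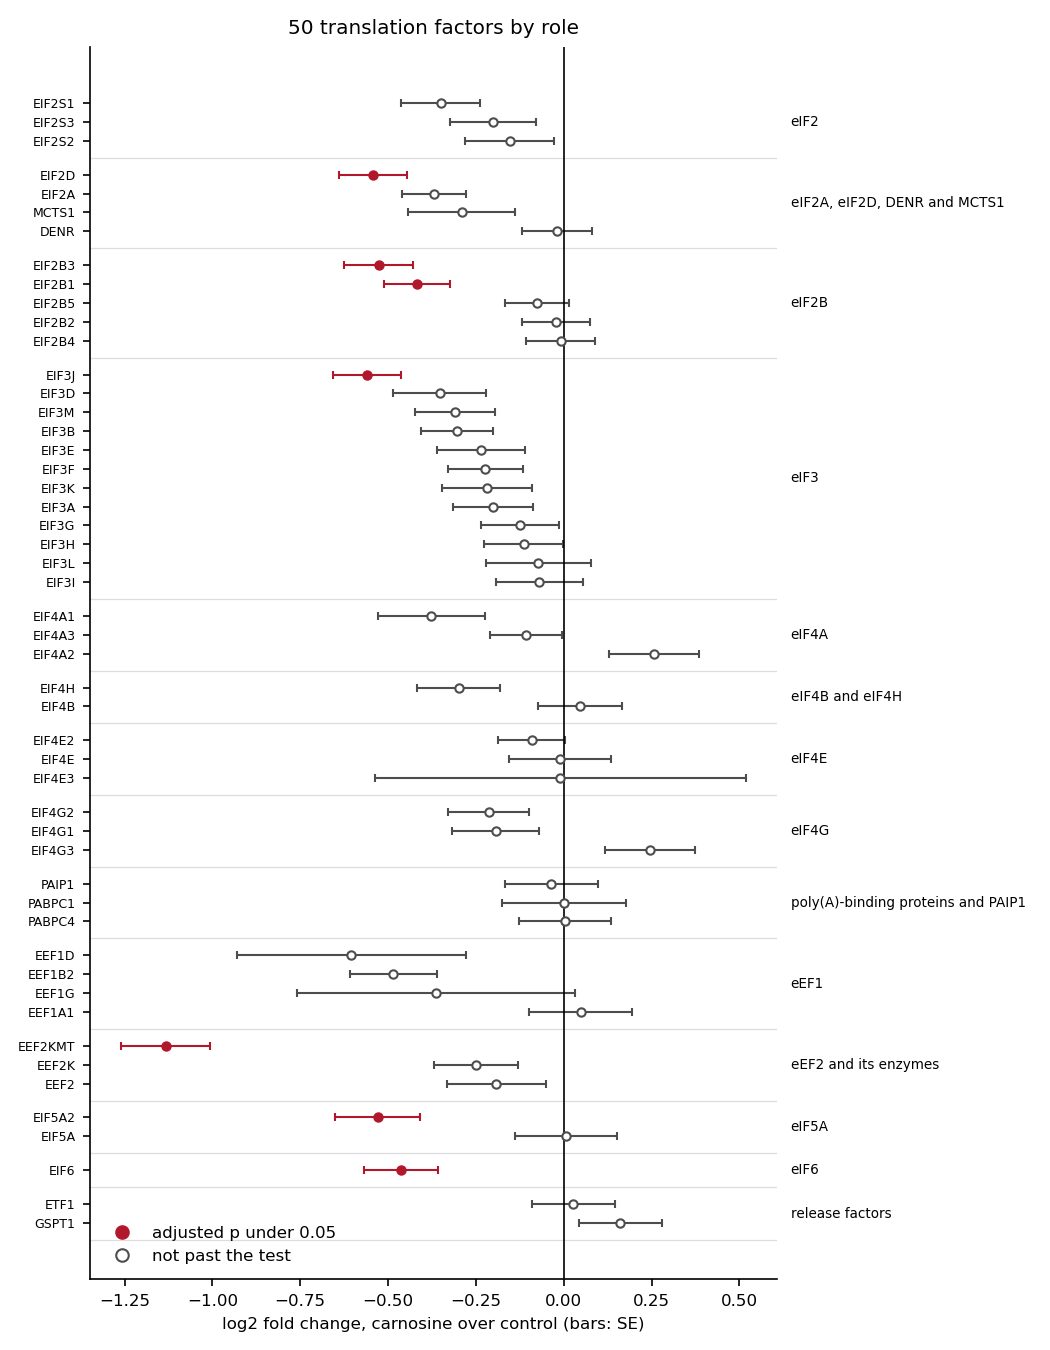
Log2 fold change (carnosine over control, n = 2 libraries each) of the 50 members, grouped by role from top to bottom, with bars of 1 SE. Filled red points mark the 7 members with an adjusted p under 0.05, all below 0, and open grey points mark the 43 that did not pass.

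The clearest change was in EEF2KMT (ENSG00000118894.14, chr16:5084304-5097808, minus strand, GRCh38), whose product methylates a lysine of eEF2. It had 13.4 and 13.5 CPM (counts scaled to a common library size with TMM factors) in carnosine replicates 1 and 2, against 27.0 and 32.0 CPM in control replicates 1 and 2. The carnosine libraries lay close together and far below both controls. The log2 fold change was -1.13 ± 0.13 (SE, n = 2 each, edgeR adjusted p = 0.0113), with a 95% interval from -1.43 to -0.83. It stayed between -1.25 and -1.01 with any 1 library left out, with adjusted p from 0.00294 to 0.0112. Of its exonic bases 29.3% lie under exons of ALG1 on the opposite strand, and whether the counting used strand is unknown here. ALG1 itself had a log2 fold change of -0.10 ± 0.14 (edgeR adjusted p = 0.702).

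EEF2KMT belongs to the FAM86 family, whose other copies are mostly pseudogenes. These copies were looked up after the value of EEF2KMT was seen. The table holds 14 rows named FAM86, of which 10 passed the filter on low counts. All 10 had log2 fold changes below 0, and 7 were called lower, against 4.36% of all genes tested, with 0 called higher. FAM86C1 had 560 and 417 counts with carnosine and 1323 and 1120 counts in controls, a log2 fold change of -1.10 ± 0.13 (edgeR adjusted p = 0.0117). FAM86C2P, with 281 and 248 counts with carnosine and 819 and 769 in controls, had -1.36 ± 0.15 (edgeR adjusted p = 0.0113). The other called copies, FAM86JP, FAM86B1, FAM86B3P, FAM86EP and FAM86DP, ranged from -1.92 to -0.53. FAM86HP, FAM86FP and FAM86B2 did not pass and rest on at most 77 counts a library. Calls ended for FAM86B1, FAM86B3P and FAM86DP without control replicate 1 (edgeR adjusted p = 0.0623, 0.0736 and 0.122), and for FAM86EP and FAM86DP without control replicate 2 (0.0571 and 0.0761). FAM86B2 had a log2 fold change of 0.91 without control replicate 2 and 0.22 without carnosine replicate 1.

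Related copies can share reads. In GENCODE 29, 3.05% of the 3998 distinct windows of 101 bases (the read length) in EEF2KMT transcripts also occur, letter for letter, in transcripts of 4 FAM86 genes, FAM86EP, FAM86JP, FAM86DP and FAM86C2P. The other windows were found in transcripts of no other gene. The part that reads with several matches play in the family's counts was not tested.

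**Figure D2:**
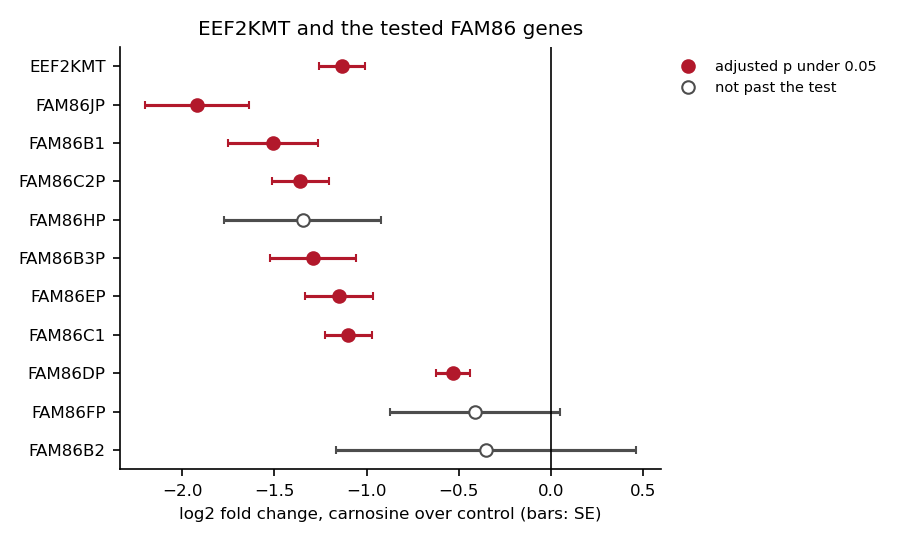
Log2 fold change (carnosine over control) of EEF2KMT, at the top, and of the 10 tested FAM86 genes, with bars of 1 SE. Filled red points have an adjusted p under 0.05, open grey points do not. All points lie below 0, from -1.92 for FAM86JP to -0.35 for FAM86B2.

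The factor that EEF2KMT modifies and the kinase that inhibits it did not pass. EEF2, the translocase of elongation, had 2639 and 3115 CPM with carnosine, against 3284 and 3287 CPM in controls. The log2 fold change was -0.19 ± 0.14 (edgeR adjusted p = 0.429), with a 95% interval from -0.52 to 0.14. EEF2K, the kinase that phosphorylates eEF2 and slows elongation, had 90.2 and 76.8 CPM with carnosine and 105.2 and 93.4 CPM in controls, a log2 fold change of -0.25 ± 0.12 (edgeR adjusted p = 0.235). For both genes both carnosine libraries lay below both controls, as they did for 28.8% of all genes tested.

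Among the eEF1 genes, EEF1A1 encodes the GTPase that carries aminoacyl-tRNA, and EEF1B2, EEF1D and EEF1G encode its nucleotide exchange complex. EEF1A1 had the most counts of any member, with 4420 and 5208 CPM with carnosine and 4505 and 4803 CPM in controls, and its groups overlapped. Its log2 fold change was 0.05 ± 0.15, with a 95% interval from -0.30 to 0.40. EEF1B2 had 277.9 and 305.8 CPM with carnosine, against 377.3 and 439.9 CPM in controls. Its groups were apart, but at a log2 fold change of -0.49 ± 0.12 it missed the threshold (edgeR adjusted p = 0.0597). It passed in DESeq2 (adjusted p = 0.0060) and in edgeR with no filter on low counts (adjusted p = 0.00285). With 1 library left out its log2 fold change ranged from -0.60 to -0.37. Of the EEF1B2 windows, 14.6% also occur in other genes' transcripts, among them the pseudogenes EEF1B2P3 and EEF1B2P6.

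EEF1D and EEF1G had few counts for subunits of one complex, and the annotation differs around them. EEF1D had 192 and 150 counts with carnosine and 443 and 184 counts in controls, and the groups overlapped in CPM. With a log2 fold change of -0.60 ± 0.33 (edgeR adjusted p = 0.287) it had the second largest absolute value of the members and did not pass. Control replicate 1 decided that value, which was -0.03 without it and -1.02 without control replicate 2. GENCODE 29 lists 47 transcripts named EEF1D outside the primary assembly, the most of any member, and the 3 other members with such transcripts are EEF1B2, EIF3K and EEF2K. EEF1G had 36 and 22 counts with carnosine and 49 and 38 counts in controls, a log2 fold change of -0.36 ± 0.40. AP002990.1, a gene annotated across it on the same strand, covers 99.9% of the exonic bases of EEF1G and itself had 37 and 40 counts with carnosine and 35 and 38 in controls. Per 1000 exonic bases the level was 0.191 ± 0.042 CPM with carnosine and 0.246 ± 0.011 CPM in controls for EEF1G (SD, n = 2 each), and 152.4 ± 10.3 CPM with carnosine and 213.4 ± 23.1 CPM in controls for EEF1B2. The counting of reads that match more than 1 gene or place is unknown here, and its part in these low counts was not tested.

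The initiation factor eIF2 and its exchange factor eIF2B come next. All 3 subunit genes of eIF2 lay below 0, where 49.9% of all genes tested did. Of the 3, 0 passed, where 8.31% of all genes tested did. EIF2S1, the alpha subunit and the target of the stress kinases, had 126.0 and 146.5 CPM with carnosine, against 173.1 and 174.2 CPM in controls. That is a log2 fold change of -0.35 ± 0.11 (edgeR adjusted p = 0.102), with groups apart. EIF2S3, the gamma subunit, had -0.20 ± 0.12 and EIF2S2, the beta subunit, -0.15 ± 0.13. EIF2S1 passed in edgeR with no filter on low counts (adjusted p = 0.0456) and did not pass in DESeq2 (adjusted p = 0.0594). Its log2 fold change was -0.47 without carnosine replicate 2 and -0.25 without carnosine replicate 1.

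Of the 5 eIF2B subunit genes, 2 were called lower, where 4.36% of all genes tested were, and 3 did not pass. EIF2B3, the gamma subunit (ENSG00000070785.16, chr1:44850522-44986722, minus strand), had 36.4 and 35.1 CPM with carnosine, against 53.9 and 49.1 CPM in controls, a log2 fold change of -0.53 ± 0.10 (edgeR adjusted p = 0.0289). EIF2B1, the alpha subunit (ENSG00000111361.12, chr12:123620406-123633766, minus strand), had 51.7 and 54.6 CPM with carnosine, against 72.9 and 69.1 CPM in controls, a log2 fold change of -0.42 ± 0.09 (edgeR adjusted p = 0.0435). In both genes the carnosine libraries lay below both controls. EIF2B5, the catalytic epsilon subunit, had -0.07 ± 0.09, EIF2B2 -0.02 ± 0.10 and EIF2B4 -0.01 ± 0.10. Their 95% intervals reach down to -0.29, -0.25 and -0.24, and the difference between these subunits and EIF2B3 or EIF2B1 was not tested. The sign of EIF2B2 and EIF2B4 turns with total-count scaling, to 0.0008 and 0.016.

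The calls of both eIF2B genes depend on single libraries, and that of EIF2B1 also on the scaling. Leaving out control replicate 1 or 2 ended the call of EIF2B3 (edgeR adjusted p = 0.148 and 0.0662). Leaving out control replicate 1, control replicate 2 or carnosine replicate 1 ended that of EIF2B1 (edgeR adjusted p = 0.221, 0.153 and 0.0967), as did total-count scaling (0.0510). Exons of GTF2H3 and DDX55 lie opposite 15.6% of the exonic bases of EIF2B1. GTF2H3 was itself called lower, with a log2 fold change of -0.48 ± 0.11 (edgeR adjusted p = 0.0412). Its call ended when control replicate 1, control replicate 2 or carnosine replicate 1 was dropped (edgeR adjusted p = 0.113, 0.220 and 0.0886), and with total-count scaling (0.0516). Without strand the reads of such a pair cannot be told apart.

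The genes EIF2D, EIF2A, DENR and MCTS1 encode factors that handle initiator or other tRNAs on the ribosome apart from eIF2. EIF2D (ENSG00000143486.15, chr1:206571292-206612463, minus strand) had 57.3 and 52.3 CPM with carnosine, against 79.0 and 80.7 CPM in controls. The groups were apart, and the log2 fold change was -0.54 ± 0.10 (edgeR adjusted p = 0.0251). Leaving out either control library ended the call (edgeR adjusted p = 0.0750 and 0.0979 without replicates 1 and 2). None of its windows occurs in transcripts of another gene and none of its exonic bases lies under an exon of another gene.

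EIF2A missed the threshold, with 75.7 and 77.5 CPM with carnosine and 98.8 and 99.1 CPM in controls. The groups were narrow and apart, with a log2 fold change of -0.37 ± 0.09 (edgeR adjusted p = 0.0556). EIF2A passed in DESeq2 (adjusted p = 0.0224) and in edgeR with no filter on low counts (adjusted p = 0.0276). It did not pass in limma-voom (adjusted p = 0.0549) or in edgeR with total-count scaling (adjusted p = 0.0672). MCTS1, which works with DENR as a pair that resembles EIF2D, had 31.5 and 42.9 CPM with carnosine and 43.9 and 46.9 CPM in controls, a log2 fold change of -0.29 ± 0.15 (edgeR adjusted p = 0.275), with groups apart. It passed without carnosine replicate 2 (0.0346) and was -0.09 without carnosine replicate 1 (edgeR adjusted p = 0.729). DENR had -0.02 ± 0.10 with groups that overlap, and 0.003 with total-count scaling.

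**Figure D3:**
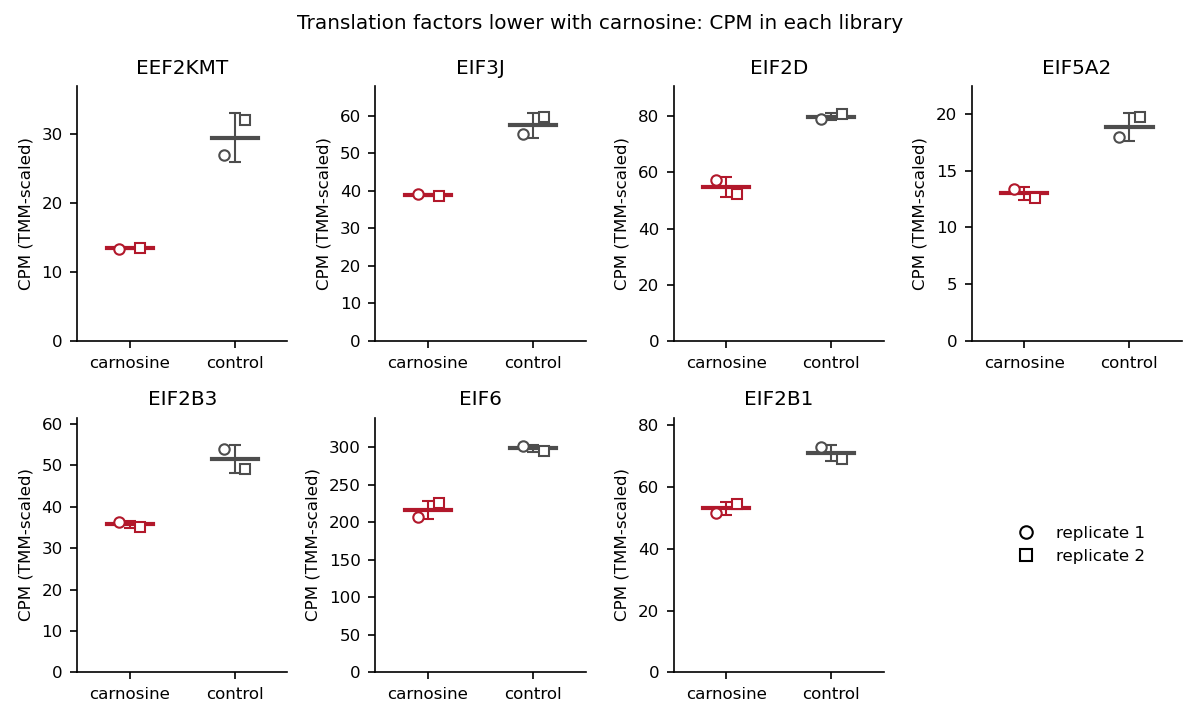
CPM of the 7 called members in each library, carnosine left and control right, with circles for replicate 1, squares for replicate 2, the group mean as a line and the SD as bars. Both carnosine libraries lie below both controls in every panel, at 13.4 and 13.5 CPM against 27.0 and 32.0 CPM for EEF2KMT.

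The scaffold eIF3 was covered by 12 subunit genes. All 12 log2 fold changes lay below 0, from -0.56 to -0.07 with a median of -0.22, where 49.9% of all genes tested lay below 0. Of the 12, 1 passed, where 8.31% of all genes tested did. EIF3C and EIF3CL, near-identical copies that encode a further subunit, are not among the 12. EIF3CL was called higher (log2 fold change 0.98 ± 0.19, edgeR adjusted p = 0.0313), and EIF3C had -0.13 ± 0.26 and was not called. EIF3I turns to 0.03 and EIF3L to 0.11 without carnosine replicate 1. EIF3J (ENSG00000104131.12, chr15:44537057-44563029, plus strand), which binds the complex loosely and acts at the decoding site, had 39.2 and 38.7 CPM with carnosine, against 55.2 and 59.7 CPM in controls. The carnosine libraries lay close together below both controls, with a log2 fold change of -0.56 ± 0.10 (edgeR adjusted p = 0.0224). The call ended without control replicate 2 (0.108). Exons of SPG11 lie opposite 5.9% of its exonic bases.

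The other 11 subunits did not pass. EIF3D, EIF3M and EIF3B had log2 fold changes of -0.35 ± 0.13, -0.31 ± 0.11 and -0.30 ± 0.10, with groups apart and edgeR adjusted p of 0.144, 0.134 and 0.114. EIF3D, whose product can bind the cap of certain mRNAs, had 215.9 and 265.9 CPM with carnosine and 295.7 and 319.8 CPM in controls, a difference that passed without carnosine replicate 2 (edgeR adjusted p = 0.0397) and with no filter on low counts (0.0479). Without carnosine replicate 1 it was -0.21 (edgeR adjusted p = 0.358). EIF3B, a core scaffold subunit, had 266.0 and 276.6 CPM with carnosine and 334.6 and 334.9 CPM in controls. EIF3E, EIF3F, EIF3K, EIF3A, EIF3G and EIF3H lay between -0.24 and -0.11, and EIF3L and EIF3I at -0.07. AL022311.1, on the same strand, covers 41.1% of the exonic bases of EIF3L, and 27.5% of EIF3L windows also occur in other genes' transcripts. EIF3H, EIF3I, EIF3K and EIF3L had groups that overlap.

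Per 1000 exonic bases, eIF3 subunit genes differ widely in level. EIF3I had the highest, 190.4 and 221.5 CPM with carnosine and 206.7 and 225.4 CPM in controls. EIF3D, EIF3K, EIF3A and EIF3G followed, with means from 56.4 to 59.2 CPM with carnosine and from 62.7 to 75.6 CPM in controls, and do not differ from each other beyond their spread with carnosine. EIF3J and EIF3F were lowest. EIF3J had 12.3 and 12.1 CPM with carnosine and 17.3 and 18.7 CPM in controls, and EIF3F had 13.7 and 15.5 CPM with carnosine and 17.2 and 16.9 CPM in controls. These levels divide by the union of annotated exons, so long, rarely used exons lower them. The 2 numbered pseudogenes of EIF3F held counts equal to 12.7% of the gene's own.

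**Figure D4:**
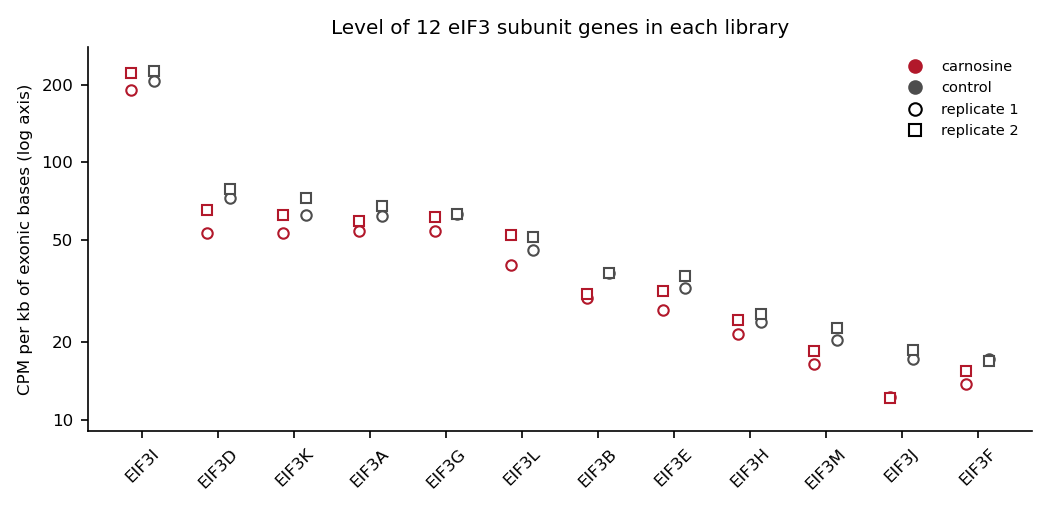
Level of the 12 eIF3 subunit genes as CPM per 1000 exonic bases (log axis), one symbol per library, carnosine in red at the left and control in grey at the right of each gene, ordered by the control mean. EIF3I lies highest and EIF3J and EIF3F lowest in both groups, and the carnosine symbols of EIF3J, at 12.3 and 12.1, lie below its controls at 17.3 and 18.7.

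In the cap-binding group 0 of 11 genes passed, where 8.31% of all genes tested did, and paralogs lay on both sides of 0. EIF4A1 and EIF4A2 encode closely related RNA helicases of eIF4F, and EIF4A3 the helicase of the exon junction complex. EIF4A2 had 254.7 and 308.1 CPM with carnosine, against 225.6 and 245.1 CPM in controls, a log2 fold change of 0.26 ± 0.13 (edgeR adjusted p = 0.251). EIF4A1 had 13.4 and 17.5 CPM with carnosine, against 19.5 and 20.6 CPM in controls, a log2 fold change of -0.38 ± 0.15 (edgeR adjusted p = 0.168). EIF4A1 passed without carnosine replicate 2 (edgeR adjusted p = 0.0397) and was -0.20 without carnosine replicate 1 (0.462). Both pairs of groups were apart, as were those of 28.8% of all genes tested on the lower side and 27.8% on the higher side. EIF4A3 had -0.11 ± 0.10.

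The ratio of EIF4A2 to EIF4A1 counts within a library was 19.0 and 17.6 with carnosine, against 11.5 and 11.9 in controls. These ratios were not tested. With 2 libraries against 2, an exact permutation test could not give a two-sided p below 0.333. Of the EIF4A1 windows 35.5% also occur in other genes' transcripts, chiefly AC016876.2 and SENP3-EIF4A1, which are annotated across it. The 13 numbered pseudogenes of EIF4A1 held 5739 counts over all libraries, more than the 4287 of the gene. Their part in the ratio was not tested. The level of EIF4A1, 2.91 ± 0.55 CPM per 1000 exonic bases with carnosine and 3.78 ± 0.14 CPM in controls (SD, n = 2 each), covers only reads that the deposited counting gave to EIF4A1. EIF4A2 had 45.9 ± 6.15 CPM with carnosine and 38.4 ± 2.25 CPM in controls on that scale.

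The eIF4G scaffolds also lay on both sides of 0. EIF4G1, the main scaffold, had 831.0 and 786.2 CPM with carnosine and 986.1 and 863.9 CPM in controls, a log2 fold change of -0.19 ± 0.12. EIF4G2, a homolog that lacks the eIF4E site and serves cap-independent initiation, had 969.4 and 977.7 CPM with carnosine and 1160 and 1098 CPM in controls, a log2 fold change of -0.21 ± 0.11. EIF4G3 had 194.4 and 159.3 CPM with carnosine and 156.0 and 142.3 CPM in controls, a log2 fold change of 0.25 ± 0.13. Each had groups apart and edgeR adjusted p of 0.364, 0.281 and 0.273. Both carnosine libraries lay below both controls for 28.8% of all genes tested and above them for 27.8%. The ratio of EIF4G3 to EIF4G1 counts was 0.234 and 0.203 with carnosine, against 0.158 and 0.165 in controls, and that of EIF4G2 to EIF4G1 overlapped between the groups.

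The genes of the cap-binding proteins did not pass. EIF4E had 65.5 and 85.0 CPM with carnosine and 70.8 and 80.9 CPM in controls, with a log2 fold change of -0.01 ± 0.14 and a 95% interval from -0.35 to 0.33. EIF4E2, a homolog that represses translation, had -0.09 ± 0.09, and EIF4E3, a homolog with 12 to 30 counts a library, -0.01 ± 0.53. With total-count scaling EIF4E and EIF4E3 turn to 0.008 and 0.026. The helicase partner EIF4H had 345.7 and 389.4 CPM with carnosine, against 435.5 and 469.1 CPM in controls, a log2 fold change of -0.30 ± 0.12 (edgeR adjusted p = 0.157), with groups apart. The other partner, EIF4B, had 0.05 ± 0.12 and groups that overlap, and turned to -0.06 without carnosine replicate 2.

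**Figure D5:**
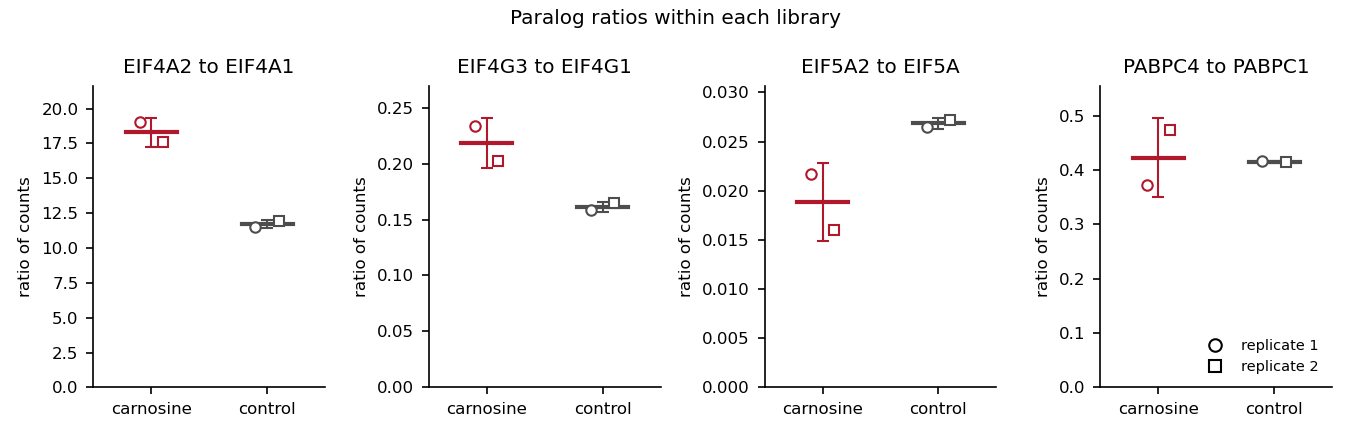
Ratio of counts between paralogs within each library, carnosine left and control right, with circles for replicate 1, squares for replicate 2, the mean as a line and the SD as bars. Both carnosine ratios of EIF4A2 to EIF4A1, 19.0 and 17.6, and of EIF4G3 to EIF4G1 lie above both controls, those of EIF5A2 to EIF5A lie below, and those of PABPC4 to PABPC1 overlap.

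Poly(A)-binding proteins join the mRNA tail to eIF4G. PABPC1 had 824.6 and 614.1 CPM with carnosine and 792.0 and 645.7 CPM in controls, so replicate 1 was the higher in both groups and the groups overlapped. Its log2 fold change was 0.001 ± 0.18, with a 95% interval from -0.42 to 0.42. PABPC4 had 0.002 ± 0.13, and PAIP1, a partner that stimulates translation, -0.03 ± 0.13. The signs of these 3 near-zero values turn under some settings given with the processing results.

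eIF5A helps the ribosome through difficult peptide bonds and is the one protein known to carry hypusine, made from the polyamine spermidine. EIF5A2 (ENSG00000163577.7, chr3:170888415-170908693, minus strand) had 13.4 and 12.6 CPM with carnosine, against 17.9 and 19.7 CPM in controls. The groups were apart, with a log2 fold change of -0.53 ± 0.12 (edgeR adjusted p = 0.0457). It has the highest adjusted p of the 7 calls, which ended when any 1 library was dropped. The edgeR adjusted p was then 0.0617 and 0.0787 for dropping carnosine replicates 1 and 2, and 0.112 and 0.234 for control replicates 1 and 2. It also ended in limma-voom (adjusted p = 0.0514) and in edgeR with upper-quartile factors (0.0544) or total-count scaling (0.0734). EIF5A, the main isoform, had 620.3 and 788.5 CPM with carnosine and 678.0 and 723.9 CPM in controls, with overlapping groups and a log2 fold change of 0.007 ± 0.14. The ratio of EIF5A2 to EIF5A counts was 0.0217 and 0.0160 with carnosine, against 0.0265 and 0.0272 in controls.

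EIF6 (ENSG00000242372.6, chr20:35278911-35284985, minus strand), which is also needed to mature the large subunit, had 207.6 and 225.4 CPM with carnosine, against 302.0 and 295.4 CPM in controls. The groups lay far apart relative to their spread, with a log2 fold change of -0.46 ± 0.11 (edgeR adjusted p = 0.0440). Dropping control replicate 1, control replicate 2 or carnosine replicate 1 ended the call (edgeR adjusted p = 0.207, 0.199 and 0.0850). AL121753.1, on the same strand, covers 17.4% of its exonic bases and had 6 and 8 counts with carnosine and 27 and 13 in controls.

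The release factors did not pass and lay above 0. GSPT1, the GTPase eRF3a, had 363.0 and 417.4 CPM with carnosine, against 359.3 and 338.9 CPM in controls, with groups apart and a log2 fold change of 0.16 ± 0.12 (edgeR adjusted p = 0.434). ETF1, or eRF1, which reads the stop codons, had 0.03 ± 0.12, with a 95% interval from -0.25 to 0.31, and turned to -0.09 without carnosine replicate 2.

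Promoter sequences are shown for the 2 called members that hold CACGTG, the E-box bound by MYC and related factors, within 250 bases before an annotated start. The letters read the same on both strands. The called EEF2KMT had no entry and was not searched. Of the 40 members with an entry, 10 (25%) held it in at least 1 such window, against 11.1% of tested genes with an entry and 6.34% of all start entries. The E-boxes are in capitals in the lines below.
EIF2B3 (chr1:44986596-44986845, minus strand): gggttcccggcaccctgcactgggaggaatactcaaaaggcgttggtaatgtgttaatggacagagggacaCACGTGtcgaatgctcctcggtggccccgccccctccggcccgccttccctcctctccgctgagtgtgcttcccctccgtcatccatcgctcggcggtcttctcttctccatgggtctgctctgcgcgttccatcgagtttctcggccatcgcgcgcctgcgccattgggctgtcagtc
EIF5A2 (chr3:170908638-170908887, minus strand): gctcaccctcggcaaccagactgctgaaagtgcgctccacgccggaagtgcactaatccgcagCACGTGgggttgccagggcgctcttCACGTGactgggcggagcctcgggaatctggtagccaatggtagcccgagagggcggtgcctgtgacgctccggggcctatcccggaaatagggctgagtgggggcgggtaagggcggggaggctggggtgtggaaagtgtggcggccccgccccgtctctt
The E-box of EIF2B3 begins 179 bases before the start, and those of EIF5A2 begin 187 and 162 bases before it. The other 8 members with an E-box, EEF2K, EIF3F, EIF3K, EIF4A3, EIF4B, EIF4E, EIF4G1 and EIF4H, were not called. The median log2 fold change was -0.22 over these 10, of which 2 were called, and -0.20 over the 30 with no such match, of which 4 were called. Of all genes tested 8.31% were called. TGATGCAA, a composite element bound by ATF4, was in 0 of the 40 members on either strand and in 0.611% of tested genes with an entry. A match is a run of letters and shows no binding, and the absence of one says only that these letters are not in the window.

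A further list of 70 names from the same pathway covers start codon factors, eIF4E-binding proteins, eIF2 kinases and phosphatase subunits, modifying enzymes and mitochondrial factors. Of these 67 were in the table and 63 were tested, with a median log2 fold change of -0.03. Of the 63, 2 were called higher and 2 lower, where 3.95% and 4.36% of all genes tested were. EIF5, the GTPase activator of eIF2, had 80.0 and 70.9 CPM with carnosine, against 292.7 and 282.9 CPM in controls, a log2 fold change of -1.93 ± 0.11 (edgeR adjusted p = 0.00336). EIF4EBP1, which sequesters eIF4E when mTOR is inactive, had 61.1 and 52.9 CPM with carnosine, against 93.7 and 109.0 CPM in controls, a log2 fold change of -0.83 ± 0.12 (edgeR adjusted p = 0.0170). EIF1B, a relative of the start codon factor EIF1, was higher, with 21.0 and 25.9 CPM with carnosine and 14.4 and 15.6 CPM in controls (log2 fold change 0.64 ± 0.14, edgeR adjusted p = 0.0392). That call ended when control replicate 1, control replicate 2 or carnosine replicate 2 was dropped (edgeR adjusted p = 0.140, 0.0829 and 0.0715). The remaining call, EIF3CL, is a copy of EIF3C.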

How the data were processed

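The values are raw gene counts, deposited by the authors without normalization for 2 carnosine and 2 control libraries. The submitters' processing notes name hg38 and the tools HTSeq 0.6.1, HISAT2 2.1.0 and bcl2fastq 2.17.0. The annotation release, the use of strand and the handling of reads with several matches are unknown here. The table held 0 columns of other samples.

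Genes were kept by edgeR's filterByExpr (minimum count 10, minimum total 15), which left 16340 of 58219. Libraries were scaled by TMM and compared with edgeR 4.0.16 in R 4.3.3 (two-sided quasi-likelihood F test on group alone, which leaves 2 residual degrees of freedom). P values were adjusted by Benjamini-Hochberg across the genes kept, and 0.05 was the threshold. The SE is the absolute log2 fold change divided by the square root of F and is approximate, and 95% intervals are not adjusted. CPM use TMM-scaled library sizes. Total counts ran from 51632970 to 71766267, and replicates differed by more than counting noise (chi-square 53.0 times its degrees of freedom for carnosine and 33.8 times for control). The pipeline was tested on simulated data.

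The 12 other settings include RLE, upper-quartile and total-count scaling, other filters, DESeq2 1.42.0, limma 3.58.1 (voom), a replicate block and each library left out. Applying them to genes other than the members was decided after seeing the data. Exon overlaps, lengths and windows of 101 bases come from GENCODE 29 (GRCh38), matched by identifier for all 50 members. Members and lists were chosen with earlier results of these data known. Full values were given for members past the threshold or among the 6 largest absolute log2 fold changes, and others were added after their values were seen.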

Additional observations from a re-analysis of the deposited data

How the results depend on the processing

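The number of genes called, 1358, was 3145 with no filter on low counts, 2211 in DESeq2, 5767 with the replicate block and from 505 to 1595 with a library left out, and within 1.5 times under the other 5 settings. The number of members called, 7, was 11 with no filter, 23 with the replicate block and from 1 to 11 with a library left out, and from 5 to 9 under the other 6 settings. In each of these fits but the block no member was called higher. The block uses replicate numbers that the labels give without saying what they share. Deviations of same-numbered libraries correlated at r = 0.451 across genes, which with 2 pairs does not establish a pairing. The block called EIF4A2 and EIF4G3 higher and 21 members lower, all 7 called members and, of the cap-binding genes, EIF4A1 and EIF4H included, and the cause was not tested.

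Members near 0 changed sign. With upper-quartile factors EIF2B4, EIF4E and EIF4E3 had log2 fold changes of 0.0067, 0.0028 and 0.0097, and with total counts DENR, EIF2B2, EIF2B4, EIF4E and EIF4E3 had 0.0027, 0.000789, 0.016, 0.0076 and 0.026. With no filter PABPC1 and PABPC4 had -0.0022 and -0.000561, in limma-voom PABPC1 and EIF5A had -0.0078 and -0.000831, and with the block -0.0070 and -0.0025. With a library left out the ranges crossed 0 for DENR (-0.11 to 0.0559), EIF2B2 (-0.10 to 0.0484), EIF2B4 (-0.0679 to 0.0443), EIF3I (-0.19 to 0.0331), EIF3L (-0.28 to 0.11), EIF4B (-0.0595 to 0.14), EIF4E (-0.22 to 0.16), EIF4E3 (-0.58 to 0.37), PABPC1 (-0.23 to 0.19), PABPC4 (-0.14 to 0.16), PAIP1 (-0.17 to 0.0865), EEF1A1 (-0.0788 to 0.16), EIF5A (-0.18 to 0.17) and ETF1 (-0.0905 to 0.13). Outside the members they did so for EIF3C (-0.63 to 0.23), FAM86B2 (-1.22 to 0.91) and ALG1 (-0.29 to 0.0626).

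The members' median, -0.20, was -0.11 without carnosine replicate 1 and between -0.23 and -0.17 in the other 11 settings. EIF4E3, EEF1G and EEF1D have the fewest counts of the members and SE from 0.33 to 0.53.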

Other observations

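EIF3C and EIF3CL are near-identical copies that encode the eIF3 subunit absent from the 12 described. EIF3CL had 21.1 and 31.5 CPM with carnosine, against 13.3 and 13.3 CPM in controls, a log2 fold change of 0.98 ± 0.19 (edgeR adjusted p = 0.0313). EIF3C had 11.9 and 21.5 CPM with carnosine, against 17.3 and 19.3 CPM in controls, a log2 fold change of -0.13 ± 0.26, with groups that overlap. Their summed CPM was 33.0 and 53.0 with carnosine, against 30.6 and 32.6 in controls. EIF3CL was called without each of the 4 libraries in turn, with log2 fold changes from 0.66 to 1.24, and EIF3C was called lower without carnosine replicate 2 (-0.63, edgeR adjusted p = 0.0397). The handling of reads that match both copies is unknown here.

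The pseudogene EIF4A1P10 was given more counts than EIF4A1 itself, 1037 and 1002 with carnosine and 1810 and 1499 in controls, where EIF4A1 had 806 and 883 with carnosine and 1390 and 1208 in controls. Its log2 fold change was -0.46 ± 0.12 (edgeR adjusted p = 0.0611), beside -0.38 ± 0.15 for EIF4A1. Over the 4 libraries the 13 numbered pseudogenes of EIF4A1 held 5739 counts, against 4287 for the gene. For EEF1A1 the 38 numbered pseudogenes held 8455 counts, 0.748% of the gene's own.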
